A study of Mus musculus with 12 samples.

Results

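The response to both hormones together was read from 3 arrays of HT-22 cells labelled T3+CORT and 3 arrays labelled vehicle, which are 6 of the 12 arrays of the series and were chosen by their treatment labels. T3 is 3,5,3'-triiodothyronine, the active thyroid hormone, and CORT is corticosterone, the main glucocorticoid of rodents. The study used Illumina mouse whole-genome bead arrays to ask how the transcripts of a hippocampus-derived cell line respond to these hormones, given alone or in combination. The cells were grown in medium whose serum had been freed of thyroid and steroid hormones and were then moved to serum-free medium for 4 h. The T3+CORT samples received 30 nM T3 and 100 nM CORT, the vehicle samples received neither hormone, and both held 0.03% DMSO and 0.001% ethanol. The other 6 arrays, 3 with 30 nM T3 alone and 3 with 100 nM CORT alone in the same solvents, entered the model so that all 4 groups shared 1 estimate of the spread, and the combination was also compared with each of them.

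HT-22 is a single line immortalized with the SV40 T antigen, so the arrays describe 1 culture model and not hippocampal tissue. The labels call the cells hippocampal neurons. Of 20 neuronal markers on the array, 15 never reached the limit of detection on 3 arrays, and those 15 include the neurofilament genes *Nefl* and *Nefm* and the neuronal splicing factor gene *Rbfox3*. *Eno2*, which encodes neuron-specific enolase, was above the limit of 87.0, at 123.6 to 176.7 on vehicle and 144 to 156 on T3+CORT. The astrocyte marker *Gfap* lay below the limit on all 6 arrays, as did the endothelial marker *Pecam1*. By contrast, 14 of 18 fibroblast and mesenchymal markers were tested. Summed over each list, the neuronal markers gave 1449 to 1502.1 on vehicle and 1478.4 to 1534 on T3+CORT, and the fibroblast markers gave 34786 to 37608 and 33280 to 35393. The 18 glial and immune markers, of which only 2 were tested, gave 2315.2 to 2380.1 on vehicle and 2060.7 to 2125.2 on T3+CORT, without overlap. A difference of about that size lay in *Slc1a3* alone, at 1092.5 to 1178 on vehicle and 852.9 to 896.4 on T3+CORT. The 10 endothelial markers gave 702 to 715.6 and 696.3 to 722. The part of such shifts in the results was not tested, and in bulk RNA fewer cells of a type and less RNA per cell cannot be told apart.

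Glucocorticoids act through the glucocorticoid receptor and T3 through the thyroid hormone receptors, both of which are transcription factors that a ligand switches on. The glucocorticoid receptor raises genes that carry its response element, among them feedback regulators of the stress, clock and inflammatory pathways, and is best known for lowering the transcripts of inflammatory mediators. Thyroid hormone receptors sit on DNA with or without hormone, and *Klf9* is a gene that both hormones are known to raise in the brain. The probe for *Nr3c1*, the gene of the glucocorticoid receptor, read 77 to 85.4 on vehicle and 76.6 to 83.5 on T3+CORT, below the limit on all 6 arrays, and so did that for *Thrb*, one of the thyroid hormone receptor genes, at 49.2 to 53.2 and 53.4 to 55.6. The probe for *Thra*, the other, read 87.7, 80.0 and 95.5 on vehicle and 66.5, 74.4 and 62.9 on T3+CORT. All 3 T3+CORT arrays and 1 vehicle array lay below the limit, so it was at least 1.01-fold lower (adjusted p = 0.012). A probe below the limit does not show that a transcript is absent. The study's methods cite earlier work in which HT-22 cells had functional receptors for both hormones.

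Signals are the deposited normalized intensities, and a log2 fold change is the mean log2 signal on T3+CORT minus that on vehicle. Testing was limited to the 17746 of 45281 probes whose signal was at or over the limit of detection, 87.0, on 3 or more of the 12 arrays. The adjusted p of a probe is the Benjamini-Hochberg value over these 17746 in 1 limma model. At an adjusted p under 0.05, 1791 probes rose (10.1% of those tested) and 1878 fell (10.6%). Of these calls 88.8% were smaller than 1.5-fold, and the median call was 1.31-fold for rises and 1.28-fold for falls. With a change of at least 1.5-fold added, 254 probes rose (1.43%) and 157 fell (0.885%), for 192 and 125 named genes. The study's cut-offs, an unadjusted p under 0.02 with 1.5-fold, gave the same total of 411 when applied to this model. Only the cut-offs are the study's, which took its fold from ratios of mean signals. The rises reached further than the falls: 53 probes rose and 18 fell by 2-fold or more, and 14 rose and 0 fell by 3-fold or more. The arrays of the 2 groups did not overlap for 7697 probes (43.4%).

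**Figure D1:**
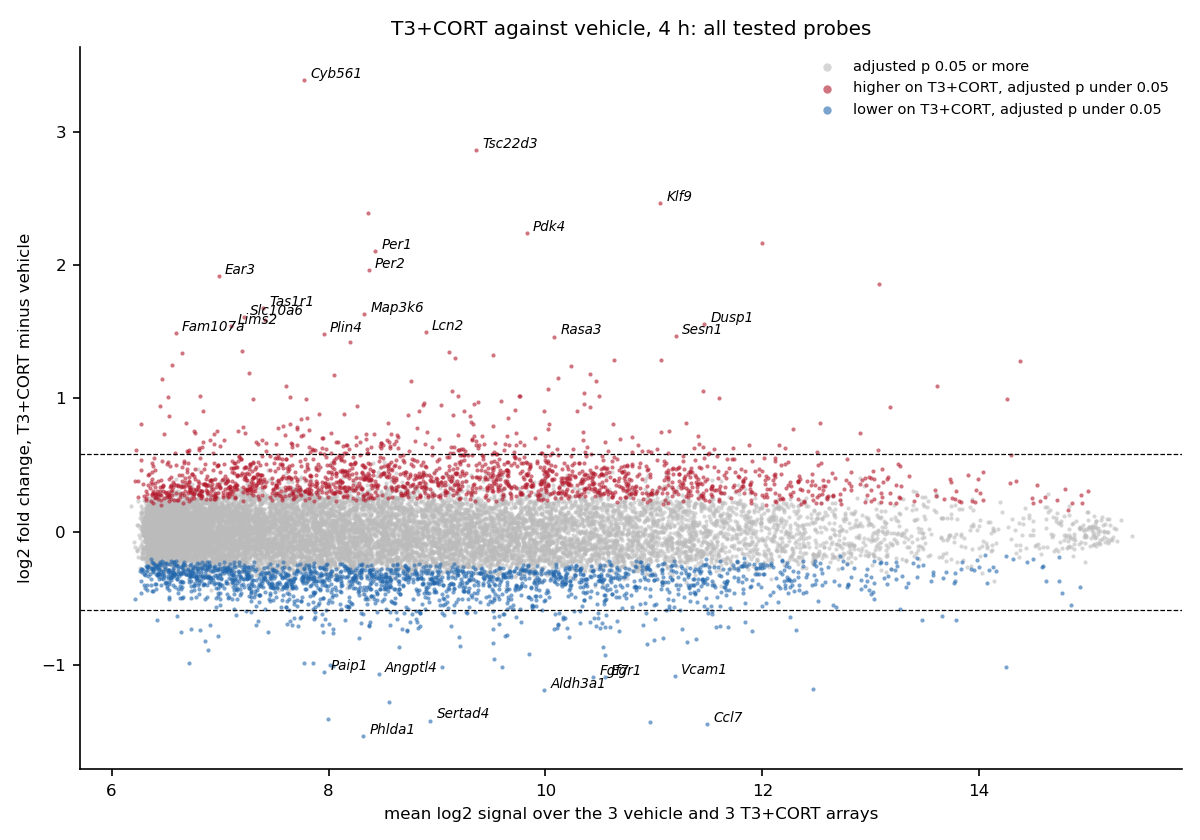
Log2 fold change of T3+CORT against vehicle for each of the 17746 tested probes, plotted against its mean log2 signal over the 6 arrays. Red and blue points passed an adjusted p of 0.05 (1791 higher, 1878 lower), dashed lines mark 1.5-fold, and the named genes are among the 20 largest rises and 20 largest falls.

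The 3 vehicle arrays correlated with each other at 0.997 to 0.998 on the log2 scale, and the 3 T3+CORT arrays at 0.996 to 0.997. The median probe had a replicate SD of 0.080 on vehicle and 0.090 on T3+CORT, and the 95% interval of its log2 fold change reached 0.20 to either side. Bright probes passed more often than dim ones: 8.54% of the 4437 dimmest tested probes and 29.8% of the 4437 brightest passed the adjusted p. Without vehicle replicate 1 the number of probes past the adjusted p was 2317 in place of 3669, and without any other single array it was 2466 to 4864. The labels name no slide, and where slides and treatments coincide their effects cannot be told apart. The methods say that each treatment was done in triplicate. Nothing in them or in the labels says that replicates came from separate cultures. The p values thus measure only the spread between these samples, which may be technical.

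*Cyb561* showed the largest change of all tested probes. It encodes a membrane cytochrome that carries electrons to regenerate ascorbate in secretory vesicles. Its signal was 67.2, 67.9 and 67.3 on the vehicle arrays, all below the limit, and 643, 682 and 805 on the T3+CORT arrays, so it was at least 8.13-fold higher (adjusted p = 1.8e-13). On CORT alone the arrays read 254, 268 and 244, and on T3 alone 189, 172 and 168. The combination lay above every single-hormone array, by a log2 difference of 1.47 from CORT (standard error 0.09, adjusted p = 1.3e-07) and of 2.01 from T3 (adjusted p = 3.9e-10).

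*Klf9*, a Krüppel-like transcription factor that restrains growth and supports neuronal maturation, rose 5.51-fold. The vehicle arrays read 876, 963 and 887 and the T3+CORT arrays 4686, 4938 and 5411, a log2 difference of 2.46 ± 0.09 (standard error; adjusted p = 5.8e-12). Its levels on the single hormones lay between, at 2809, 2595 and 3006 on T3 and 2014, 1811 and 2099 on CORT, with no overlap among the 4 groups. *Tas1r1*, which encodes a subunit of the umami taste receptor, had another order: it read 105, 86.5 and 91.8 on vehicle, 113, 128 and 124 on CORT, 212, 292 and 254 on T3 and 276, 317 and 311 on T3+CORT. It rose against vehicle (log2 fold change 1.68, adjusted p = 1.9e-08) and lay above CORT by 1.31, while its difference of 0.26 from T3 alone did not pass (adjusted p = 0.098).

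*Dbp*, a transcription factor gene driven by the circadian clock, read 479.5, 453 and 454 on vehicle and 1238, 1233 and 1018 on T3+CORT, 1.33 higher on the log2 scale (adjusted p = 9e-08), and lay above CORT alone by 0.75 (adjusted p = 0.00087). *Errfi1*, which encodes an inhibitor of the epidermal growth factor receptor, rose from 691, 714 and 754 to 1516, 1418 and 1605 (log2 fold change 1.07), with 1026, 1050.2 and 1071 on CORT. *Ear3*, a ribonuclease gene of the eosinophil-associated family, was below the limit on vehicle at 67.8, 62.4 and 65.7 and read 214, 249 and 279.9 on T3+CORT, at least 2.83-fold higher. Its difference of 0.60 from CORT (adjusted p = 0.013) did not pass without CORT replicate 1 or 2 or without T3+CORT replicate 2 or 3, where the adjusted p was 0.079 to 0.11. A second probe of *Ear3* was at least 1.17-fold higher than vehicle and its difference from CORT did not pass (0.36, adjusted p = 0.21), and the family is so alike in sequence that its probes may read more than 1 member. Over the 9 tested thyroid hormone target genes, 4 rose and 1 fell, where 12% of all genes rose and 11.4% fell. Without vehicle replicate 1 only 2 of the 9 rose. Beside *Klf9* and *Dbp* the changes were small: *Stat5a*, a signal transducer of growth hormone and prolactin, rose by 0.33 and the cholesterol 7-alpha-hydroxylase gene *Cyp7a1* by 0.28 on the log2 scale, and *Gpd2*, the mitochondrial glycerophosphate dehydrogenase gene, fell by 0.35. The corepressor gene *Hr*, a known direct target of T3 in the brain, did not pass (0.22, adjusted p = 0.12), and 21 of the 30 list members on the array were not tested because of low signal.

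Genes known to be raised by glucocorticoids rose far more often than they fell. Of 36 tested members of that list 20 rose and 3 fell, with a median log2 fold change of 0.502, where 12% of the 9574 genes read at 1 probe each rose, 11.4% fell and the median was -0.008. Some members of this list and of the other lists stand in the study's own tables of these arrays, and for those the direction is no independent evidence. All lists were chosen with earlier results of these data known, so their shares beside those of all genes are descriptions only. *Tsc22d3*, the glucocorticoid-induced leucine zipper, rose 7.25-fold at its more responsive probe, from 249, 232 and 253 on vehicle to 1771, 1765 and 1782 with both hormones (log2 fold change 2.86, standard error 0.16), and by a log2 fold change of 2.17 at its brighter one. At both probes every T3+CORT array lay above every vehicle array, which at the more responsive probe follows from how it was chosen. *Fkbp5*, which encodes a chaperone that lowers the hormone affinity of the glucocorticoid receptor, rose from 369.5, 375 and 350.4 to 911, 934 and 855 (log2 fold change 1.30, adjusted p = 1.1e-08). *Sgk1*, a kinase of ion transport and cell survival, rose from 6710.4, 6522 and 6858 to 12507, 12195 and 13797 (1.91-fold).

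Metabolic and stress-response genes stood among these rises. *Pdk4*, a kinase that shuts off pyruvate dehydrogenase and so spares glucose, went from 407, 403 and 445 to 1956, 1961 and 1996, 4.71-fold higher (log2 fold change 2.24, adjusted p = 8.9e-12). *Sesn1*, a sestrin that restrains mTORC1, rose from 1466, 1362 and 1432 to 3864, 3917 and 3999 (2.77-fold). Its other probes rose 2.44-fold and 2.14-fold. *Lcn2*, which encodes the iron-siderophore carrier lipocalin 2, rose from 293, 284 and 274 to 786, 839 and 777 (2.82-fold), and the acute-phase gene *Orm1* was at least 1.83-fold higher from a vehicle level below the limit. In each of these genes the arrays of the 2 groups did not overlap, by the way the largest rises were chosen. Of the metallothioneins, which bind zinc and other metals, *Mt2* rose 2.55-fold, from 364, 350.1 and 325 to 1055, 848 and 768. *Mt1* read 38073, 39831 and 39831 and 41358, 40239.8 and 43898, a log2 fold change of 0.09 (adjusted p = 0.41), where the highest value of the scale is 43898.

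**Figure D2:**
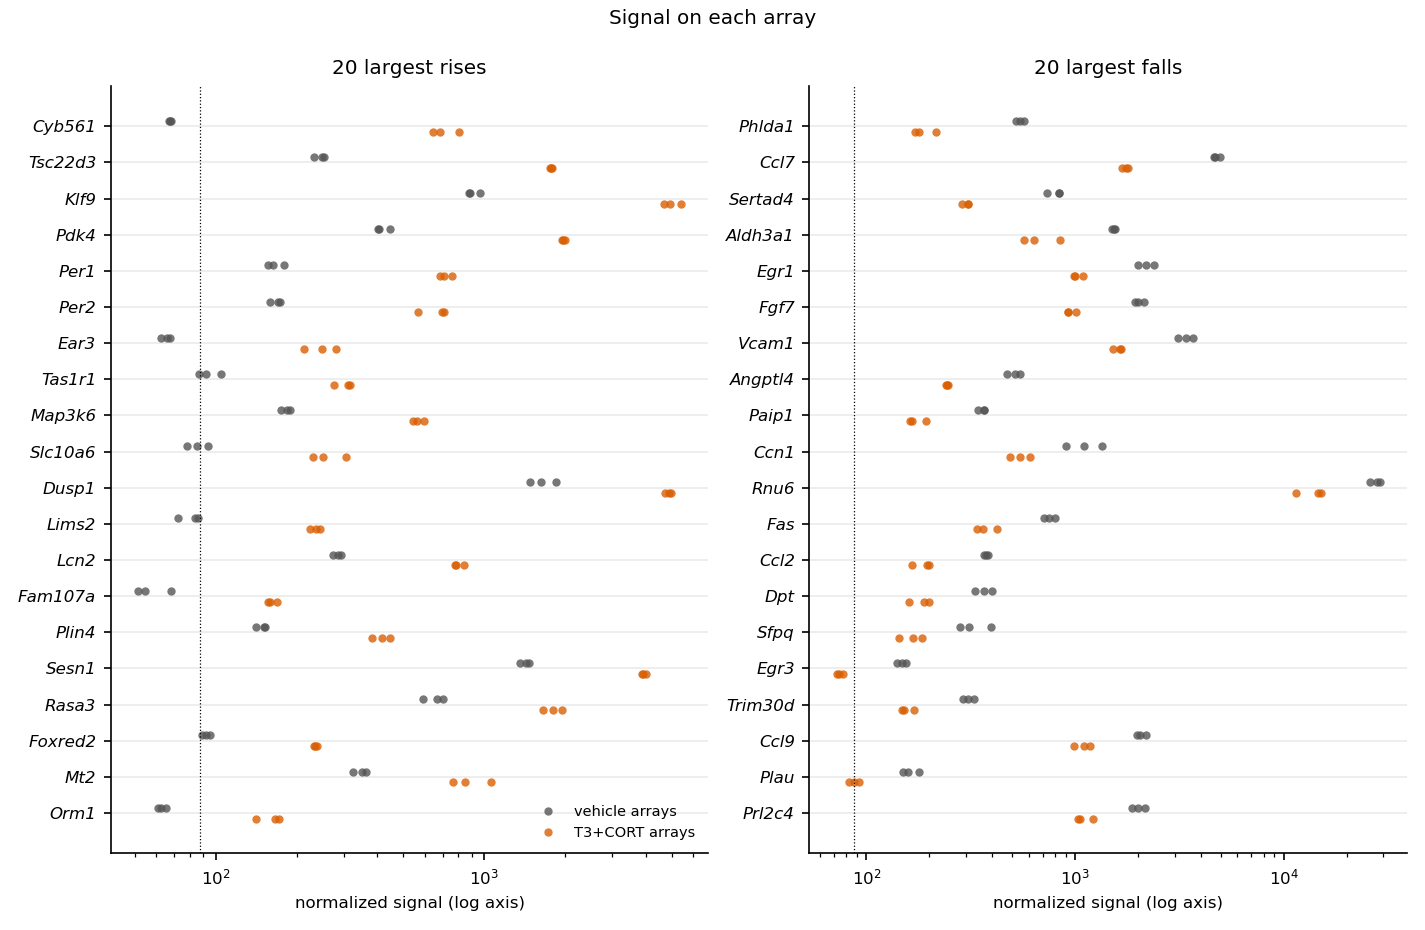
Normalized signal (log axis) on each of the 3 vehicle arrays (grey) and 3 T3+CORT arrays (orange) for the 20 largest rises and the 20 largest falls, ordered by size. The dotted line is the limit of detection of 87.0, the groups do not overlap for any of the 40 genes by the way they were chosen, and *Cyb561* has the widest gap.

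Among genes that feed back on kinase signalling some rose and more fell. *Dusp1*, a phosphatase that switches off MAP kinases, went from 1487, 1625 and 1855 to 4715, 4866 and 4969.5 (2.94-fold), and *Map3k6*, a stress-activated kinase, from 184, 188 and 176 to 543, 595 and 563 (3.10-fold). The second probe of *Map3k6* rose 1.99-fold. *Rasa3*, a Ras and Rap GTPase-activating protein, rose 2.76-fold at its stronger probe, while the other did not pass and its arrays overlapped (log2 fold change 0.20, adjusted p = 0.12). Of the 20 largest rises, *Lims2*, which encodes an adaptor of cell-matrix adhesion, was at least 2.70-fold higher and *Foxred2*, a gene of protein degradation in the endoplasmic reticulum, rose 2.55-fold. Their other probes lay below the limit on vehicle. These were at least 1.43-fold and 1.66-fold higher for *Lims2* and at least 1.06-fold and 1.61-fold higher for *Foxred2*. Over the 22 tested genes of MAP kinase and growth factor feedback, 4 rose and 8 fell, where 12% of all genes rose and 11.4% fell. Besides *Dusp1*, *Map3k6* and *Errfi1* the fourth rise was that of *Dusp14* (0.52), and the falls included *Dusp4* (-0.74), *Lrig1* (-0.70), a brake on ErbB receptors, and *Dusp8* (-0.67). *Dusp6*, a feedback phosphatase of ERK, had a log2 fold change of 0.11 (adjusted p = 0.4). Without vehicle replicate 2 the count of falls was 5.

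The genes with the largest rises were searched for the letters of the receptors' response elements, to show what the sequence beside their starts holds. The RefSeq promoter table (GRCm38.p6) gives 300 bases a start, 250 before it and 50 after it, and holds 32851 promoters. The inverted repeat of the glucocorticoid receptor, GNACA and TGTNC with 3 bases between them and N any base, was searched on both strands and occurred in 0.475% of all promoters and in 31 of the 7817 tested genes with a promoter in the table (0.397%). Among genes that rose by at least 1.5-fold with no overlap of the arrays, 151 of 192 had a promoter and 5 of these held the repeat, and among those that fell 91 of 125 had a promoter and 0 held it. *Slc10a6*, *Fam107a* and *Map3k6* are among the 20 largest rises, and *Serpina3n* and *Sgk1* were named after their values were seen. The matches are shown in capitals in 93 bases of each promoter, 5′ to 3′ on the gene's strand:
Sgk1 (chr10:21993662-21993754, plus strand): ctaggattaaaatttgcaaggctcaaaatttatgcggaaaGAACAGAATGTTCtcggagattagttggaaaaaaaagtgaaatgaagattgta
Slc10a6 (chr5:103629514-103629606, minus strand): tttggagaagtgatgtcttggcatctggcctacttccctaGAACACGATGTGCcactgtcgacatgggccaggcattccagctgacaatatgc
Fam107a (chr14:8309845-8309937, minus strand): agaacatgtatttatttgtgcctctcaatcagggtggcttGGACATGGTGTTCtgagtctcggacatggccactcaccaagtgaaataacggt
Map3k6 (chr4:133240597-133240689, plus strand): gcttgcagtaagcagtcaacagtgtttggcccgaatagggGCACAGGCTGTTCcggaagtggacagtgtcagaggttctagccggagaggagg
Serpina3n (chr12:104406590-104406682, plus strand): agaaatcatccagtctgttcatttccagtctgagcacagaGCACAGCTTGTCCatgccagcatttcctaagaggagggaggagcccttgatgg

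RefSeq annotates more than 1 start for some of these genes. The matches begin 188 bases before 1 of the starts of *Sgk1*, 163 before that of *Slc10a6*, 118 and 120 before 2 starts of *Fam107a*, 181 before a start of *Map3k6* and 78 before that of *Serpina3n*. The starts used for *Sgk1*, *Fam107a* and *Map3k6* are internal, within the annotated span of the gene and not at its outer end. *Slc10a6*, which encodes a carrier of sulfated steroids, read 78.0, 85.5 and 93.4 on vehicle and 231, 250.3 and 306 on T3+CORT (log2 fold change 1.61). Its second probe was at least 1.32-fold higher. *Fam107a*, an actin-bundling protein gene that stress induces in the mouse hippocampus, read 67.9, 54.6 and 51.3 and 159, 157 and 169, at least 1.85-fold higher, and *Serpina3n*, a secreted protease inhibitor, rose from 198, 196 and 210.0 to 314, 338 and 362 (1.68-fold). The direct repeat of thyroid hormone receptors, AGGTCA again after 4 bases and likewise on both strands, was in 5 of the 32851 promoters and in 0 of the tested genes. A match of letters describes the sequence and is no evidence of binding, and the absence of one says only that these letters are not in this window.

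Several clock genes and their output factors were higher. Of 13 tested, 6 rose and 1 fell, with a median log2 fold change of 0.288, beside 12% and 11.4% of all genes and their median of -0.008. *Per1* and *Per2*, the period genes that repress their own transcription and that glucocorticoids are known to raise directly, rose from 179.7, 164 and 157 to 709.8, 756 and 682 (4.29-fold) and from 169.9, 174 and 159.6 to 566, 709 and 696 (3.90-fold). Their second probes rose less, 3.00-fold and 2.68-fold. *Tef*, a PAR-domain factor related to *Dbp*, rose from 609, 619.6 and 617 to 1058, 1178 and 1248 (log2 fold change 0.91, adjusted p = 2.7e-06). *Bhlhe40*, a repressor in the clock, and *Arntl*, which encodes BMAL1, rose by 0.52 and 0.37 on the log2 scale, and the kinase gene *Csnk1e* fell by 0.41. *Clock* (0.05, adjusted p = 0.69), *Cry2* (0.24, adjusted p = 0.11) and *Per3* (-0.11, adjusted p = 0.43) did not pass.

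The falls included genes of the early response to growth factors and serum. *Phlda1*, which growth factors induce, had the largest fall of a named gene, from 568, 544 and 519 on vehicle to 216, 178 and 171 with both hormones, 2.90-fold lower (log2 fold change -1.53, standard error 0.10, adjusted p = 1.6e-08). *Egr1*, an immediate early zinc finger factor, fell from 2192, 2394 and 1993 to 1004, 987 and 1087 (2.13-fold lower), and *Egr3* was at least 1.69-fold lower, from 140.2, 155 and 148 to 72.0, 73.5 and 77.6, below the limit. At these probes of the 3 genes every T3+CORT array lay below every vehicle array, by the way they were chosen. A second probe of *Egr3* read 88.3, 78.9 and 79 on vehicle and 83, 85.7 and 86.7 on T3+CORT. Its groups overlapped and it did not pass (adjusted p = 0.68). Of 20 tested immediate early genes, transcription factors and others, 9 fell and 3 rose, against 11.4% and 12% of all genes. *Ier3* fell by 0.61 on the log2 scale, *Fosl2* by 0.52, *Junb* by 0.51 and *Srf*, the serum response factor itself, by 0.37. The rises were those of *Csrnp1* (0.55), *Ier5l* (0.52) and *Klf2* (0.39), while *Jun* (-0.20, adjusted p = 0.2), *Myc* (-0.11, adjusted p = 0.65) and *Fosb* (-0.10, adjusted p = 0.57) did not pass.

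Several chemokines and an adhesion gene were lower. *Ccl7*, which encodes a chemokine that draws monocytes, fell from 4612, 4669.9 and 4938 to 1761, 1674 and 1801, 2.72-fold lower (log2 fold change -1.44, adjusted p = 3.5e-08), and its second probe had a log2 fold change of -1.43. *Ccl2*, another monocyte chemokine whose gene is also on chromosome 11, fell from 373, 367 and 384 to 195, 200 and 166 (2.01-fold lower), and *Ccl9* from 2041, 2179 and 1975 to 1099.8, 984 and 1179 (1.90-fold lower). *Vcam1*, the vascular cell adhesion molecule, went from 3415, 3126 and 3693 to 1523, 1658 and 1642 (2.12-fold lower). The groups did not overlap in any of these, by the way the largest falls were chosen. Of 18 tested chemokines, cytokines and adhesion genes 9 fell and 2 rose (5 fell without vehicle replicate 3). Of all genes 11.4% fell and 12% rose. The rises were those of the acute-phase genes *Lcn2* and *Saa3* (0.81). *Cxcl1* fell by 0.73, *Cxcl10* by 0.50 and *Ccl5* by 0.43 on the log2 scale. *Icam1* read 99.9, 86.5 and 84.4 and 77.4, 92.2 and 88.6, near the limit (log2 fold change -0.07, adjusted p = 0.65).

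The genes of the NF-kappaB pathway, which drives many of these mediators, had a median of 0.018, with 4 of 18 tested lower and 2 higher, where 11.4% of all genes were lower and 12% higher. Without T3+CORT replicate 2 only 2 fell. *Relb*, a subunit of the noncanonical arm, fell by 0.64 on the log2 scale (adjusted p = 0.00016) and the kinase gene *Irak2* by 0.54, while the atypical inhibitor gene *Nfkbiz* rose by 0.49. *Nfkbia*, the classical inhibitor gene that glucocorticoids raise in many cells, read 1625, 1496 and 1516 on vehicle and 1519, 1584 and 1505 on T3+CORT, a log2 fold change of -0.01 with a standard error of 0.14. *Tnfaip3* (-0.10, adjusted p = 0.54) and *Zfp36*, which encodes an mRNA-destabilizing protein (0.24, adjusted p = 0.082), did not pass either.

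Secreted growth factors fell more often than they rose, with 10 of 23 tested genes lower and 2 higher, beside 11.4% and 12% of all genes. Without vehicle replicate 3 the lower ones numbered 6. *Fgf7*, the keratinocyte growth factor, went from 1928, 2011 and 2129.8 to 926, 923 and 1009 (2.12-fold lower, adjusted p = 5.6e-08). *Inhba*, which encodes the activin A subunit, fell by 0.72 on the log2 scale, *Vegfb* by 0.56, *Ptn* by 0.45 and *Bdnf*, the brain-derived neurotrophic factor gene, by 0.34, from 782, 865 and 829 to 605, 639.7 and 716. The nerve growth factor gene is named in the study's tables, under *Ngfb*, for 2 probes to which the platform annotation gives no symbol. The first fell from 456, 411 and 386 to 163, 164 and 145 (log2 fold change -1.41, adjusted p = 0.00027). The second fell from 618, 567 and 571 to 239.7, 237 and 247 (log2 fold change -1.28, adjusted p = 3.2e-05). *Edn1*, which encodes endothelin 1, rose by 0.87 and *Kitl* by 0.52.

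Genes of the extracellular matrix and of the cytoskeleton also fell more often than they rose. Of 37 tested collagen and matrix remodelling genes 15 fell and 2 rose, and of 31 genes of the actin cytoskeleton or driven by SRF or YAP 11 fell and 3 rose. Of all genes 11.4% fell and 12% rose. The genes *Ccn1* and *Ccn2* stand on both lists. *Ccn1*, a matricellular protein gene that SRF and YAP drive, fell from 905, 1102 and 1345 to 542, 489 and 609 (2.03-fold lower), while its relative *Ccn2* rose by 0.47 on the log2 scale. *Timp3*, an inhibitor of matrix metalloproteinases, fell from 2682, 2685 and 2512 to 1561, 1374 and 1465 (log2 fold change -0.84), and the plasminogen activator genes *Plau* and *Plat* by 0.89 and 0.70. *Dpt*, which encodes the matrix protein dermatopontin, went from 333, 366 and 399.9 to 160.1, 189 and 199.6. *Sparc* fell by 0.50, the tenascin gene *Tnc* by 0.46 and *Loxl1*, a collagen crosslinker, by 0.44. The fibrillar collagen genes *Col1a1* (-0.21, adjusted p = 0.36) and *Col1a2* (-0.07, adjusted p = 0.64) did not pass. Among cytoskeletal genes *Tmsb4x*, which encodes an actin-sequestering thymosin, fell by 0.71, *Cfl1*, the cofilin gene, by 0.67 and the tropomyosin genes *Tpm4* and *Tpm1* by 0.55 and 0.42, and the alpha-actinin gene *Actn1* rose by 0.37.

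Other large falls were spread over several lists or stood on none. *Sertad4*, a SERTA-domain gene, went from 732, 841 and 838 to 307, 287 and 307 (2.67-fold lower), *Fas*, the death receptor gene, from 752, 708 and 800.4 to 362, 337 and 424 (2.02-fold lower), and *Aldh3a1*, an aldehyde dehydrogenase gene, from 1507, 1550.1 and 1544 to 572, 635 and 844 (2.27-fold lower). *Aldh3a1* read 932, 1116 and 1091 on T3 alone and 698, 768 and 818 on CORT alone. *Angptl4*, an inhibitor of lipoprotein lipase that glucocorticoids raise in liver and fat, was 1 of the 3 members of the glucocorticoid-induced list that fell, from 517, 474 and 543 to 246, 245 and 241 (2.10-fold lower, adjusted p = 4.1e-07). *Paip1*, a translation factor gene, *Sfpq*, a splicing factor gene, and *Trim30d* fell by 1.05, 0.99 and 0.98 on the log2 scale. The placental proliferin genes *Prl2c2*, *Prl2c3* and *Prl2c4* fell by 0.70, 0.81 and 0.87 on the log2 scale, and their sequences are so alike that the 3 probes may read the same transcripts.

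**Figure D3:**
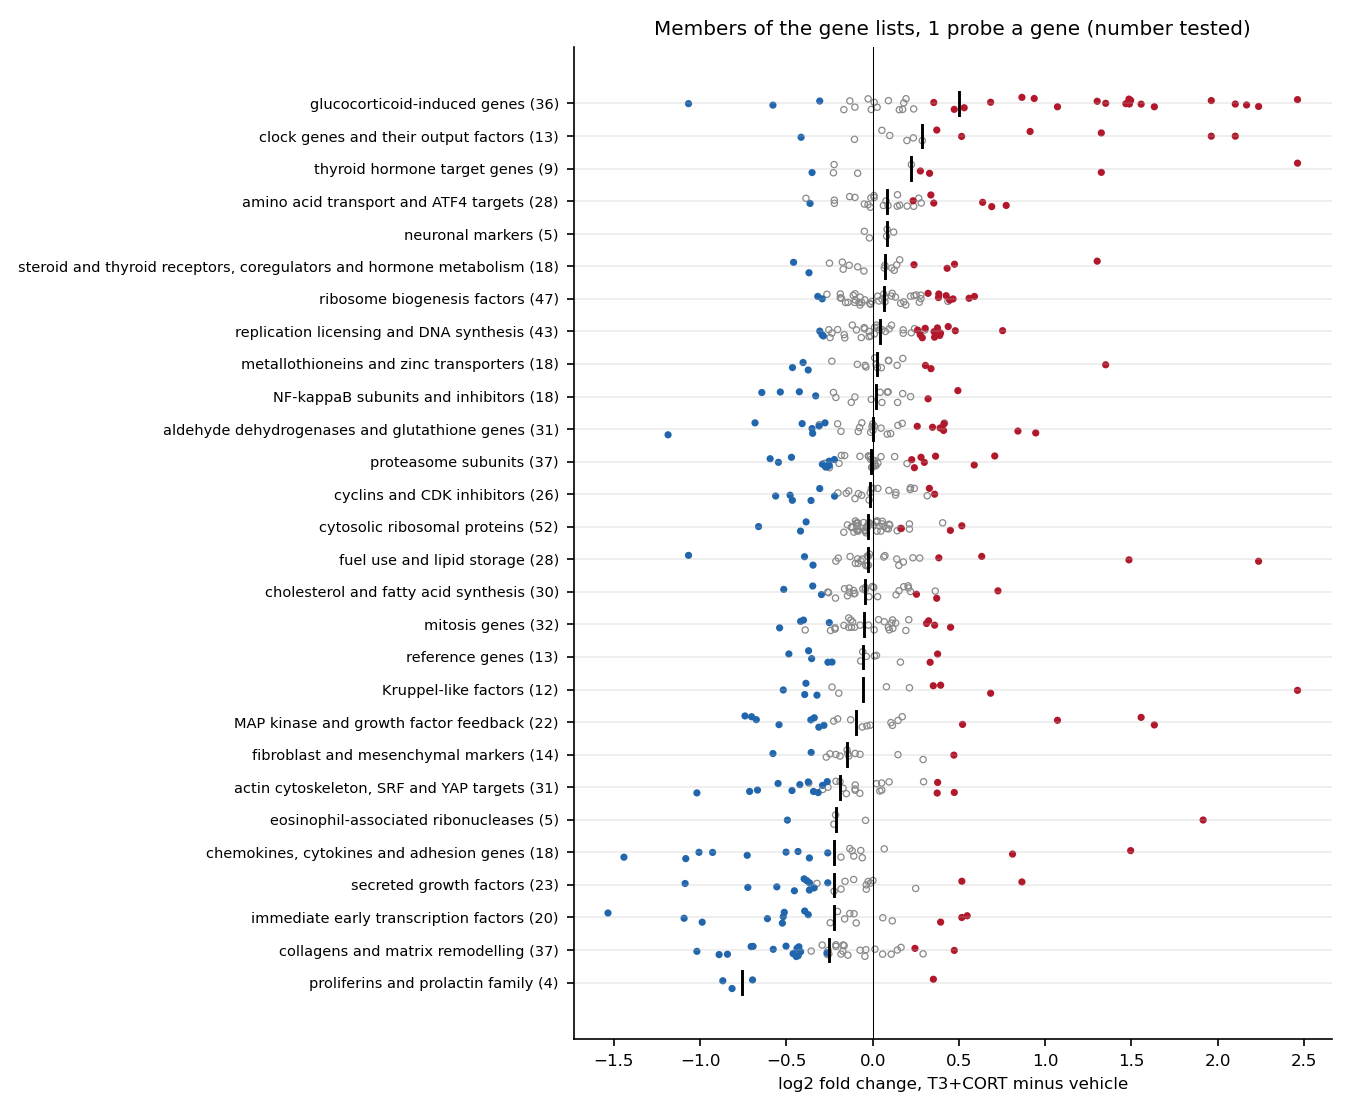
Log2 fold change of T3+CORT against vehicle for the tested members of 28 gene lists, with the number tested in brackets. Filled points passed an adjusted p of 0.05 (red higher, blue lower), open points did not, and black bars are list medians, which run from 0.502 for glucocorticoid-induced genes to -0.755 for the 4 proliferin and prolactin family genes. The lists were chosen with earlier results of these data known.

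Genes of DNA replication were more often higher than lower. Of 43 tested replication licensing and DNA synthesis genes 12 rose (27.9%) and 3 fell (6.98%), against 12% and 11.4% of all genes, although the changes were small and the list median was 0.040. *Pold1*, the catalytic subunit of DNA polymerase delta, rose by 0.75 on the log2 scale (adjusted p = 4e-05), the ribonucleotide reductase gene *Rrm2* by 0.48 and the helicase genes *Mcm2* and *Mcm4* by 0.36 and 0.29, while thymidylate synthase, *Tyms*, fell by 0.31. The 32 mitosis genes, with 4 higher and 4 lower, were near the share of all genes, and *Top2a*, a topoisomerase of chromosome segregation, fell by 0.54. Of 26 cyclin and CDK inhibitor genes 6 fell and 2 rose: *Ccnd1* and *Ccnd2*, the D-type cyclins that answer to growth factors, fell by 0.48 and 0.47, and *Cdkn1b*, the gene of the inhibitor p27, rose by 0.33. Genes of amino acid transport and targets of ATF4 had 7 rises and 1 fall among 28 (4 rises without vehicle replicate 1 or 2), led by *Slc3a2* (0.77), the heavy chain of several amino acid carriers, and *Slc38a4* (0.69), whereas *Atf4* itself did not pass (0.27, adjusted p = 0.096). Ribosome biogenesis factors had 8 rises and 2 falls among 47, with 5 rises without vehicle replicate 2 or 3 or T3+CORT replicate 3. For the other lists of this paragraph, the mitosis genes had 2 rises without vehicle replicate 3 or T3+CORT replicate 2, and the replication genes had 1 fall without vehicle replicate 2 or T3+CORT replicate 2 and 6 without T3 replicate 2.

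Several other groups had about as many rises as falls, where 12% of all genes rose and 11.4% fell. The 52 cytosolic ribosomal protein genes had 3 rises and 3 falls, with 1 rise without vehicle replicate 1 or 3. The 37 proteasome subunit genes had 7 rises and 9 falls, which dropped to as few as 3 rises without vehicle replicate 2 or 3 and 5 falls without vehicle replicate 3 or T3+CORT replicate 3 (4 rises without vehicle replicate 1 or T3+CORT replicate 3). All 3 subunits of the PA28 activators fell, *Psme1* by 0.47, *Psme2* by 0.59 and *Psme3* by 0.55 on the log2 scale, while the lid and base genes *Psmd8* and *Psmd2* rose by 0.59 and 0.71. The 30 cholesterol and fatty acid synthesis genes had 3 rises and 3 falls (5 falls without T3 replicate 2), with *Scap*, the sterol sensor that escorts SREBP, higher by 0.73 and lanosterol synthase, *Lss*, lower by 0.52. Aldehyde dehydrogenase and glutathione genes had 7 rises and 7 falls among 31, with 4 rises without vehicle replicate 1 and 4 falls without T3+CORT replicate 1 or 2: *Aldh1a7* was at least 1.39-fold higher, the glutathione transferase gene *Gsta1* was higher by 0.84 on the log2 scale, and *Nqo1*, a quinone reductase of the oxidative stress response, was lower by 0.68. Of the fuel use and lipid storage genes 4 of 28 rose and 3 fell. *Plin4*, a lipid droplet coat gene, rose from 142, 153 and 151 to 383, 447 and 417 (2.80-fold). *Pdp1*, the phosphatase that opposes the pyruvate dehydrogenase kinases, rose by 0.63, and the other kinase genes of that family, *Pdk1* (-0.13, adjusted p = 0.36), *Pdk2* (-0.02, adjusted p = 0.86) and *Pdk3* (0.15, adjusted p = 0.28), did not pass. Of 12 Krüppel-like and Sp factors 4 rose, *Klf9*, *Klf13* (0.68), *Klf2* and *Klf7* (0.35), and 4 fell, among them *Klf4* (-0.52). The falls among these factors numbered 0 to 2 without vehicle replicate 1 or 2 or without any 1 of the T3+CORT arrays.

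Against the same shares of all genes, of 18 metallothionein and zinc transporter genes 3 rose and 3 fell (1 rose without T3+CORT replicate 3, and 1 fell without vehicle replicate 3 or T3+CORT replicate 1), and beside *Mt2* the rises were those of *Slc30a4* (0.34) and *Slc39a8* (0.31). Among 18 steroid and thyroid hormone receptor, coregulator and metabolism genes 4 rose and 2 fell (2 rose without vehicle replicate 2 or T3+CORT replicate 2), the near-background probe of *Thra* among the falls: beside *Fkbp5* and *Thra*, *Rxrb*, a partner receptor of thyroid hormone receptors, rose by 0.47, the Mediator subunit gene *Med12* by 0.43, the chaperone gene *Hspa8* by 0.24, and *Stip1*, which links the chaperones of steroid receptors, fell by 0.46. *Fkbp4*, the cochaperone that opposes *Fkbp5*, had a log2 fold change of -0.14 (adjusted p = 0.34). Of the eosinophil-associated and related ribonuclease genes 5 were tested, with *Ear3* higher and *Rnase4* lower by 0.49. Among the cell type markers 1 of 2 tested glial and immune markers fell, the astrocyte glutamate transporter gene *Slc1a3* (-0.38), none of 5 neuronal markers and of 1 endothelial marker passed, and of 14 fibroblast markers *Pdgfra* rose (0.47) and *Twist1* (-0.36) and *Snai2* (-0.58) fell.

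Of 13 reference genes 2 rose and 5 fell (12% and 11.4% of all genes), and without any 1 of the vehicle arrays, or without T3+CORT replicate 1 or 2, only 1 to 3 fell. *Gapdh* read 9587, 9953 and 9866 on vehicle and 8788, 7921 and 8291 on T3+CORT (log2 fold change -0.24, adjusted p = 0.022), *Tfrc* fell by 0.49 and *Gusb* rose by 0.33. *Ppia* (0.02), *Tbp* (0.01) and *Eef1a1* (-0.07) did not pass. The counts were again 2 and 5 after normexp background correction. They were also 2 and 5 after quantile normalization, which could change little because the arrays already differed by at most 0.5 at any rank. *Actb* depended on the probe: 2 of its 5 probes rose, the brightest by 0.38, 2 dim ones were at least 1.49-fold and 1.39-fold lower, with T3+CORT below the limit, and 1 had a log2 fold change of 0.08 (adjusted p = 0.53). Among 3715 genes with 2 or more tested probes 1459 had at least 1 call, 180 had all probes called the same way and 49 had calls in both directions.

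Against CORT alone the combination differed at 99 probes (0.558% of 17746), 25 higher and 74 lower, and 1585 probes had an unadjusted p under 0.05. Without any 1 of the CORT or T3+CORT arrays 42 to 57 probes passed, and without T3 replicate 2 the number was 179. Array weights gave 224, and a test with unequal variances for each probe alone gave 0 after adjustment (1326 unadjusted). The comparison asks what the addition of T3 changed in cells that also received CORT. It shares the T3+CORT arrays with the comparison against vehicle, and the values against vehicle below share the vehicle arrays, so they are set side by side and no overlap is read from them. The probes above CORT include those of *Cyb561*, *Klf9*, *Tas1r1*, *Dbp*, *Ear3* and *Errfi1* described above. Of the further genes given below, those that stand on no list were named after their values were seen. *Cdon*, a coreceptor of hedgehog signalling, read 391, 379.7 and 366 on vehicle, 321, 271 and 309 on CORT, 606, 559.6 and 551 on T3 and 466, 448 and 498 on T3+CORT, a difference of 0.65 from CORT (adjusted p = 0.00094). *Srf* read 887, 957 and 949.7 on CORT and 1301, 1265 and 1284 on T3+CORT, against 1497, 1730.3 and 1773 on vehicle, so the fall was smaller with T3 present, by 0.46 on the log2 scale (adjusted p = 0.019). *Ccn1* at its probe of second brightness read 1079, 967 and 1035 on vehicle, 317, 324 and 331 on CORT and 509, 547 and 531 on T3+CORT, a difference of 0.71 from CORT (adjusted p = 0.033), and at its other probes the difference did not pass.

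The 74 probes below CORT include genes that rose on both treatments, genes that fell, and genes whose difference from vehicle did not pass. *Plin4* read 693, 674 and 628 on CORT and 383, 447 and 417 on T3+CORT, against 142, 153 and 151 on vehicle, a difference of -0.68 from CORT (adjusted p = 0.0011). *Sphk1*, which makes sphingosine 1-phosphate, read 946, 858 and 902 on vehicle, 3158, 2879 and 2737 on CORT and 2011, 2054 and 2084 on T3+CORT (difference from CORT -0.51, adjusted p = 0.0049). At all 3 probes of *Gsta1* the combination lay below CORT, with differences of -0.37, -0.50 and -0.46, and above vehicle. *Gas7*, a gene of actin remodelling and neurite outgrowth, also differed at all 3 probes: at the brightest it read 699, 702 and 700.3 on vehicle, 693, 807 and 663 on T3, 1507, 1594 and 1689 on CORT and 964, 994 and 1039 on T3+CORT (difference from CORT -0.68, adjusted p = 0.00068), and at the other probes the combination did not pass against vehicle (0.31 and -0.06) and its differences from CORT were -0.88 and -0.87.

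Genes of the matrix, the cell surface and the cell cycle were among these. *Dcn*, the small proteoglycan decorin, read 2959, 2869.5 and 2944 on vehicle, 4002, 4011 and 4392 on CORT and 2420.1, 2492 and 3047 on T3+CORT, a difference of -0.65 from CORT (adjusted p = 0.00085), and its log2 fold change against vehicle, -0.15, did not pass. *Cd248*, the stromal surface protein endosialin, read 2631, 2526 and 2388 on vehicle, 2977, 2854 and 2646 on CORT and 1526, 1748 and 1918 on T3+CORT (difference from CORT -0.71, adjusted p = 0.00081). *Sox9*, a transcription factor of cartilage and glia, read 3443, 3757 and 3744 on vehicle, 3248, 3809 and 4062 on CORT and 2404, 2314 and 2548 on T3+CORT (difference from CORT -0.61, adjusted p = 0.0012). *Aqp5*, a water channel gene, read 977, 866 and 997 on vehicle, 998, 907 and 943 on CORT and 583, 569 and 560.1 on T3+CORT (difference from CORT -0.73, adjusted p = 0.00023). In *Cd248*, *Sox9* and *Aqp5* the T3+CORT arrays lay below every array of the other 2 groups, while CORT alone differed from vehicle by 0.17, 0.02 and 0.01 (adjusted p = 0.22, 0.91 and 0.97), and T3 alone by 0.13, 0.05 and -0.12 (adjusted p = 0.97, 1 and 0.95). *Ccnd1*, the cyclin D1 gene, showed the same order, with 2043, 1982 and 1959 on vehicle, 2179, 2163 and 2103 on CORT and 1615, 1516 and 1198 on T3+CORT, a difference of -0.59 from CORT (adjusted p = 0.011) that did not pass at its 2 other probes (-0.41 and -0.37, adjusted p = 0.092 and 0.057). Among the falls against vehicle, those of *Ccl7*, *Angptl4*, *Timp3* and the 3 proliferin genes were larger than on CORT, with differences from CORT of -0.75, -0.60, -0.42 and, for the proliferins, -0.56, -0.44 and -0.60.

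**Figure D4:**
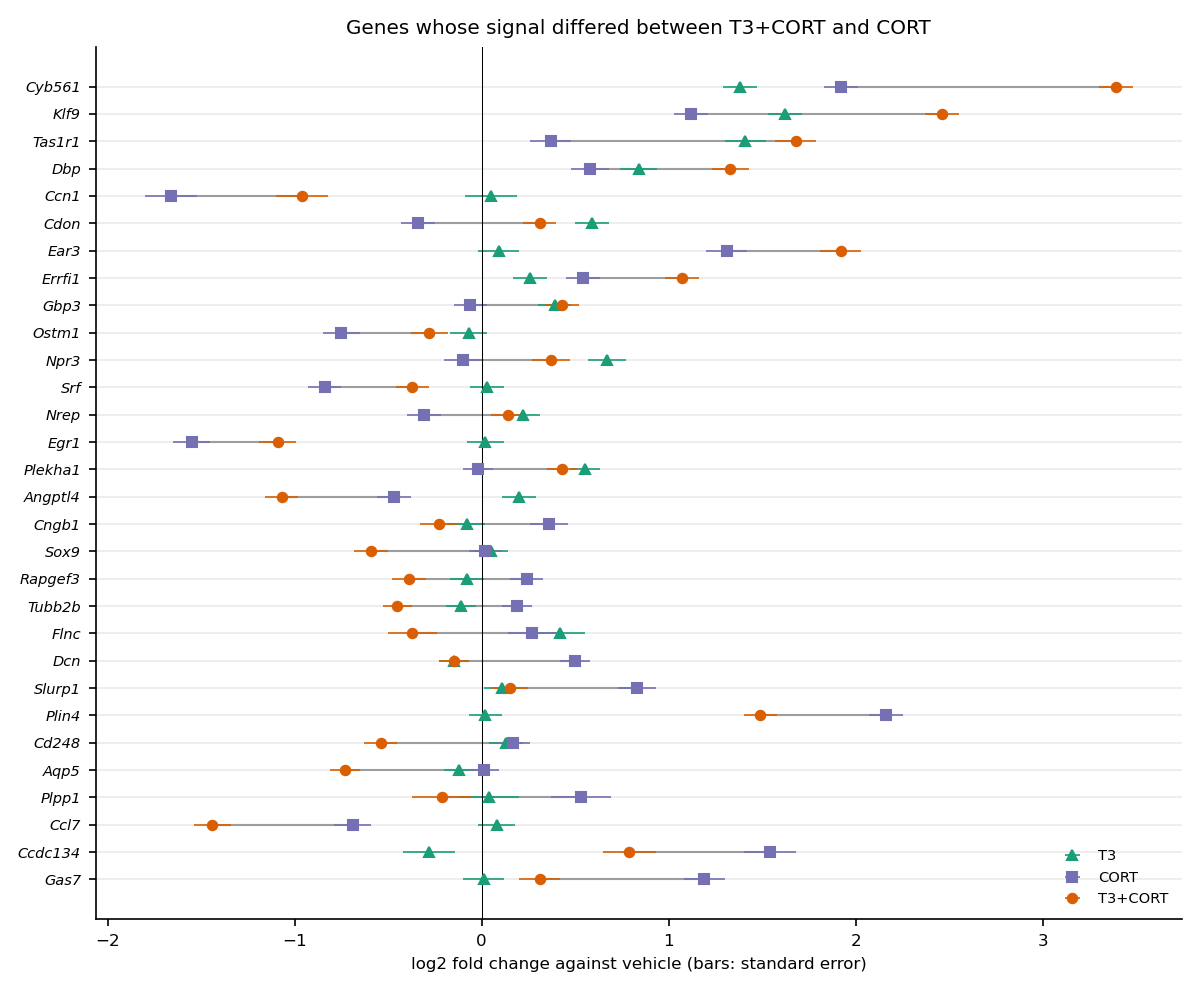
Log2 fold change against vehicle (standard error as bars) on T3 (triangles), CORT (squares) and T3+CORT (circles) for the 15 named genes furthest above and the 15 furthest below CORT among the 99 probes that differed, at the probe of the larger difference. The 3 values of a gene share the same 3 vehicle arrays, grey lines join CORT and T3+CORT, and the lines run from 1.47 upwards for *Cyb561* to -0.88 for *Gas7*.

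Against T3 alone the combination differed at 3961 probes (22.3%). The rise of *Tas1r1* did not pass against T3, while other large rises differed from T3 as well: *Pdk4* by 2.63, *Tsc22d3* by 2.78, *Per1* by 1.96 and *Cyb561* by 2.01, all with arrays apart. The T3+CORT arrays are the same in both comparisons. *Ppm1h*, a phosphatase gene that the study tested for its response to T3, had a log2 fold change of 0.57 on T3+CORT against vehicle at its brighter probe (adjusted p = 0.00017), 0.79 on T3 alone and 0.34 on CORT alone.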

How the data were processed

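HT-22 cells were profiled on 12 Illumina mouse WG-6 v2.0 bead arrays, 3 each of vehicle, T3, CORT and T3+CORT. According to the methods, total RNA was amplified and biotin-labelled, and the authors normalized the signals by the Rank Invariant method in BeadStudio. The deposited intensity values are linear, run from 40.0 to 43897.9, have medians of 71.2 to 71.3 and differ between arrays by at most 0.5 at any rank. The arrays thus share nearly the same distribution, and a shift of most signals in 1 direction could not show in them. A second deposited table holds 12 signal columns and 12 detection p-value columns tied to no sample, and the 12 signal columns were not used. The detection p values of 6 columns set the limit of detection, 87.0, the value at the rank of the lowest detected share (36.5%). The other 6 columns had only 3.93% to 5.40% of probes detected, under a set minimum of 10%, and were left out. Why the columns differ is not known, and the filter and every bound given rest on this choice. Probe names came from the platform annotation: 34885 probes had 1 symbol, 18 several and 10378 none.

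Log2 intensities were fitted with limma 3.58.1 in R 4.3.3, with 4 groups, 8 residual degrees of freedom and a mean-variance trend. Two-sided p values were adjusted by Benjamini-Hochberg. The fit was checked on simulated data. Gene lists used 1 probe a gene, that with the highest mean signal. The 20 largest rises and falls are given at the probe of the larger change. Named genes are the 20 largest rises and falls past the threshold without overlap of the arrays, list members with the largest changes or that define a list, genes the study tested or names, and reference genes and markers, and any other was named after its values were seen. Members and lists were chosen with earlier results of these data known. Alternatives covered the test, the samples fitted, the filter, background correction, normalization, array weights, a replicate block and each array left out. The number of arrays limits the precision.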

Additional observations from a re-analysis of the deposited data

How the results depend on the processing

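A test with unequal variances for each probe alone, which the methods name for the combination against the sum of the single hormones and not for these comparisons, gave 304 probes for T3+CORT against vehicle after Benjamini-Hochberg adjustment (5053 at an unadjusted p under 0.05), 75 higher and 36 lower by 1.5-fold, 0 against CORT (1326 unadjusted) and 4 against T3 (3487 unadjusted). It estimates the spread of each probe from 6 arrays alone. Array weights gave 5649 against vehicle and 224 against CORT. The lowest weights were those of T3 replicates 2 and 1 (0.28 and 0.48), which without weights count fully in the shared spread and in every comparison with T3 alone. Fitting only the groups compared gave 5502 against vehicle, 146 against CORT and 2323 against T3, and the cause was not tested. After normexp background correction 371 probes were higher and 259 lower by 1.5-fold. With 1 array left out the counts ran from 2317 to 4864 against vehicle, from 242 to 288 and from 149 to 184 for rises and falls of 1.5-fold, from 42 to 179 against CORT and from 2741 to 4018 against T3. With the replicate block they were 3748, 98 and 4094. Same-numbered vehicle and T3+CORT arrays deviated together with correlations of 0.017, -0.034 and 0.189. Same-numbered CORT and T3 arrays gave 0.447, 0.347 and 0.089, and those of the other pairs of groups ran from -0.265 to 0.198. Arrays of different numbers in different groups ran from -0.397 to 0.402. Whether the numbers pair the samples is not settled by these values. A filter on the 6 arrays compared, added after the data were seen, gave 3684. All 40 of the largest rises and falls kept their direction in every alternative run, and 21 of them lost the threshold, in the unequal-variance test only. Of the differences from CORT among these genes, 9 were followed gene by gene through the alternatives. That of *Fam107a* lost the threshold after normexp correction and, like that of *Ear3*, with some arrays left out. All 9 lost it in the unequal-variance test. The difference of *Egr1* from CORT (0.45) passed only just in the limma model (adjusted p = 0.05 after rounding) and was not followed in this way. Signals under 87.0 give only bounds.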

Other observations

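Some of the larger changes lay in probes to which the platform annotation gives no gene symbol: 37 such probes rose and 23 fell by at least 1.5-fold. They are named here through the study's tables of probes, after their values were seen. Only probes past 1.5-fold were looked up, so unchanged probes of the same RNAs could not appear. The probe listed as *2310051E17Rik* read 141, 138 and 153 on vehicle and 683, 771 and 810.2 on T3+CORT (log2 fold change 2.39, adjusted p = 1.1e-08). It read 370.0, 233 and 361 on T3 alone and 369.8, 269 and 306 on CORT alone, and the combination lay above CORT by 1.27 (adjusted p = 0.00037). Both such probes of *Por*, which encodes the reductase that feeds electrons to cytochrome P450 enzymes, rose, by 0.95 and 0.98 on the log2 scale. The ribonuclease genes *Ear4* and *Ear2*, below the limit on every vehicle array, were at least 1.51-fold and 1.49-fold higher, in a family whose probes may read more than 1 member.

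Some probes for RNAs that are not typical poly(A) messages were among those past 1.5-fold. Apart from that of *Rnu6* they were looked up in the same way, so that several of 1 kind passed is no evidence about the kind. Those 3 that are listed as *Rn18s*, the 18S ribosomal RNA, were higher by 0.99, 1.28 and 1.86 on the log2 scale. *Rnu6*, the U6 small nuclear RNA, fell from 26038, 28884 and 28061 to 15170.4, 14674 and 11413 (log2 fold change -1.02). The mitochondrial transcripts listed as *mtDNA_ND2*, *mtDNA_ND3* and *mtDNA_ND5* fell by 0.75, 0.73 and 0.72. The part of RNA quality or amplification in the response was not tested.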
